A study of Drosophila melanogaster with 3 samples.

Results

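The 8 genes described here, HtrA2, milt, Miro, Pink1, park, Marf, Opa1 and Drp1, encode proteins that shape, move, divide and clear mitochondria, and they were taken by name from the 13968 protein-coding genes on the 7 chromosome arms of Drosophila melanogaster. Each was scored for places occupied by the transcription factor cropped (crp), a basic helix-loop-helix protein related to vertebrate AP-4. Factors of this kind recognise the palindrome CAGCTG, called the AP-4 E-box here. The measurement was chromatin immunoprecipitation with sequencing (ChIP-seq) with an antibody against GFP, in 3 biological replicates of 1 group. The embryos came from a transgenic line that makes crp carrying a C-terminal GFP, were collected over 0 to 24 h with the sexes mixed, and were used whole, so that every stage and tissue of that window is averaged. The labels do not say whether the line keeps untagged crp, and no untagged or antibody control library was analysed here.

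Mitochondria form a network that fuses and divides continually, and damaged pieces are cut off and removed. Marf joins outer membranes and Opa1 joins inner membranes, while Drp1 pinches the organelle apart. milt and Miro link mitochondria to kinesin for transport along microtubules, and Pink1, a kinase, and parkin, the ubiquitin ligase encoded by park, mark damaged mitochondria for removal. HtrA2 is a protease of the space between both mitochondrial membranes. Pink1 and park are known in flies for the muscle and sperm defects of their mutants, and in people for inherited Parkinson disease.

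Of the 6 genes with a promoter peak in the authors' thresholded list, 5 had an AP-4 E-box within 50 bp of the strongest summit. The share was 30.0% over all promoter summits of that list. The DNA around these sites is printed first because the results below refer back to it. Each line gives 30 bases on the strand of the gene, 5′ to 3′, with its place on dm6 (Release 6), and capitals mark CAGCTG. The first 5 lines hold the site nearest the summit of the strongest promoter peak of each gene. The sixth shows a pair of sites 1 base apart across the downstream start of HtrA2, and the seventh the site beside a further summit of Miro.
HtrA2, 3R:14511537-14511566, minus strand: catcgcggccaaCAGCTGtttgcattgcct
milt, 2L:7042292-7042321, plus strand: gctccatcgaaaCAGCTGagtggggcccgg
park, 3L:21196778-21196807, minus strand: ccgaatggctgcCAGCTGgtgtttggcaac
Miro, 3R:24037905-24037934, minus strand: atcgtagagatcCAGCTGtcaataaagtta
Pink1, X:6684341-6684370, plus strand: acgaaacgacagCAGCTGtttggttataaa
HtrA2 pair, 3R:14511454-14511483, minus strand: ccaaattgaaatCAGCTGcCAGCTGagaag
Miro upstream start, 3R:24038899-24038928, minus strand: aaaaatacaaaaCAGCTGataaatcagcga

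The internal start of milt and the only start of Drp1 are shown with 150 bases of upstream DNA, because the first holds more than 1 AP-4 E-box and the second holds none. Neither stretch overlaps an annotated UTR. In the milt stretch capitals again mark CAGCTG. In the Drp1 stretch capitals mark CGATA, the core of the sequence bound by the insulator factor BEAF-32.
milt, 2L:7042209-7042358, plus strand: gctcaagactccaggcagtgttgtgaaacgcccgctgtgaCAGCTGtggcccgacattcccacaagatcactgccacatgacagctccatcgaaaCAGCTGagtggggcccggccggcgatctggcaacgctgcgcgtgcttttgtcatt
Drp1, 2L:2585431-2585580, minus strand: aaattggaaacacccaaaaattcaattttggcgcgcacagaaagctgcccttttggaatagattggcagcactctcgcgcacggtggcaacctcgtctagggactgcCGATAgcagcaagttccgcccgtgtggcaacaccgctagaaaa
The milt stretch holds 2 copies of CAGCTG and the Drp1 stretch holds 0. Among the same stretches of all protein-coding start sites, 9.95% held at least 1 copy and 0.706% held 2 or more. CGATA on either strand was in 31.4% of them.

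The data were peak lists without reads, so the depth behind a peak is unknown. The authors deposited a relaxed list for each replicate, with 30000, 28713 and 30000 peaks, and a relaxed list for the replicates pooled, with 28145 peaks. A further list held 5460 peaks that passed their irreproducible discovery rate (IDR) threshold. Such a threshold is meant to keep peaks whose ranks recur between lists. Which lists entered it is not known in full, and some IDR summits described below lacked a match in a replicate. Peak signal is the authors' value on the scale of their peak caller, and it was divided here by the median of the 5460 strongest peaks of the same list. This relative signal is 1 for the middle peak of that set, and the weakest IDR peak had 0.456. Since the IDR list came from the pool of the same replicates, the values of single replicates show its spread and are not separate evidence for a call.

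crp-GFP had a promoter peak at 6 of the 8 genes, and the peaks at HtrA2 and milt were among the strongest in the genome. With a promoter summit defined as one within 500 bp of a start site of the gene, HtrA2, milt, park, Miro, Drp1 and Pink1 had an IDR promoter summit, beside 33.3% of all protein-coding genes. Marf and Opa1, which encode the GTPases of outer and inner membrane fusion, had none. Over the 6 genes the median relative signal of the strongest promoter peak in the pooled list was 7.19, beside 1.50 over the 4657 protein-coding genes with such a peak, and the strongest of the 6 was 27.1 times the weakest. 3 genes, HtrA2, milt and park, had a promoter summit among the 1000 strongest IDR peaks, beside 10.2% of all genes. The 8 genes were chosen with earlier results of these data known, so these shares are background and not a test.

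The same 6 genes had a promoter summit among the 5460 strongest peaks of each replicate taken alone. The share of all protein-coding genes with one was 30.3% in replicate 1, 31.7% in replicate 2 and 32.1% in replicate 3. In the full relaxed lists 7 of the 8 genes had a promoter summit in replicate 1, 7 in replicate 2 and 8 in replicate 3, beside 55.8%, 51.5% and 58.9% of all genes. In the pooled relaxed list 7 did, beside 57.2%. The gene missing from replicates 1 and 2 and from the pooled list was Opa1. Such a relaxed peak was thus common to most genes.

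**Figure D1:**
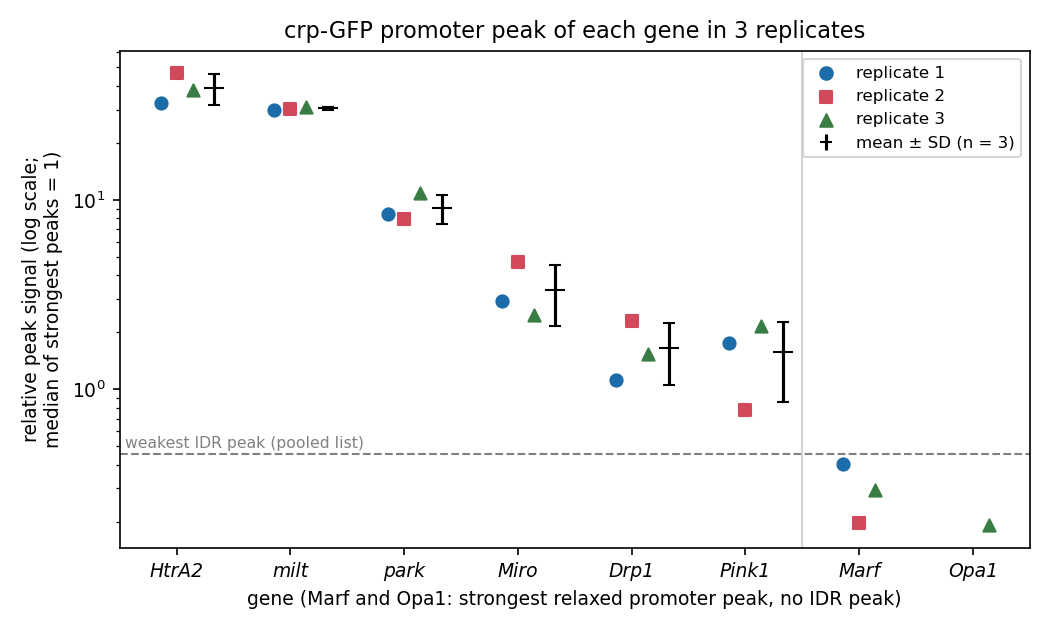
Relative signal (log scale) of the promoter peak of each gene in replicates 1, 2 and 3, with the mean and SD over the 3 replicates beside the points for the 6 genes with an IDR promoter peak; the dashed line is the weakest IDR peak of the pooled list, 0.456. HtrA2 and milt lie at 29.98 or above in every replicate, Drp1 and Pink1 change places between replicates, and the points of Marf and Opa1, which had no IDR peak, lie below the line.

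HtrA2, the intermembrane space protease (FBgn0038233, 3R:14509049-14511712, minus strand), carried the peak ranked 3 of the 5460 IDR peaks. Its relative signal was 32.4, 46.6 and 38.0 in replicates 1, 2 and 3, or 39.0 ± 7.15 (SD, n = 3), with ranks 3, 2 and 5 in the replicate lists. The summit was placed at base 14511556 in the pooled list and moved by 1 base at most between replicates. It was thus a sharp and recurrent position inside a wide peak of 1341 bp, wider than 98.3% of IDR peaks.

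The HtrA2 summit lay between the starts of its 2 transcripts. It was 96 bp upstream of the start of HtrA2-RA and inside the 5' UTR of HtrA2-RB, which starts upstream of it. The AP-4 E-box in the first printed line lay with its centre 4.5 bp from the summit in the pooled list, and 4.5, 4.5 and 3.5 bp from the summits of replicates 1, 2 and 3. The printed pair of sites lay 87.5 and 94.5 bp from the summit, and the centre of the farther one was 1.5 bp from the HtrA2-RA start. The summit was also 282 bp from the start of mRpL11, which encodes a protein of the mitochondrial ribosome and is transcribed the other way. The closest starts of both genes are 126 bp apart, so the peak cannot be assigned to HtrA2 alone.

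Pink1, the kinase that accumulates on damaged mitochondria (FBgn0029891, X:6683798-6687302, plus strand), had a promoter peak at rank 1818. In the pooled list this was the weakest of the 6 promoter peaks. Its relative signal was 1.75 in replicate 1, 0.781 in replicate 2 and 2.16 in replicate 3, or 1.57 ± 0.710 (SD, n = 3). Replicate 2 was the low one, and in replicates 1 and 3 the Drp1 peak, at 1.13 and 1.53, was weaker than that of Pink1. The replicate summits of Pink1 spread over 74 bp, the widest spread of the 6 genes.

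The Pink1 summit was 9 bp upstream of the start of Pink1-RI, an internal start used by 1 of its 9 annotated transcripts, inside the 5' UTR of longer ones. An AP-4 E-box lay across that start, its centre 0.5 bp from the start and 9.5 bp from the summit. The replicate summits were 43.5, 13.5 and 30.5 bp from it in replicates 1, 2 and 3. The start shared by 7 transcripts, at base 6683841, had no IDR summit within 500 bp; near it the pooled list held a peak of 0.341 and replicate 2 one of 0.553. Replicate 1 held only the internal peak within 500 bp of that start, and replicate 3 held none.

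park, which encodes the ubiquitin ligase parkin (FBgn0041100, 3L:21194754-21196853, minus strand), had a peak at rank 463, the third strongest of the 6. In replicates 1, 2 and 3 it had a relative signal of 8.43, 7.90 and 10.8, or 9.06 ± 1.57 (SD, n = 3), and its rank stayed between 441 and 482 in the replicate lists. The park peak therefore kept its place while the values spread by 1.37 times.

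The park summit was 7 bp downstream of the start of park-RC, in the 5' UTR. AP-4 E-boxes lay on both sides of it, with centres 30.5 and 49.5 bp away; the nearer is printed above, and the farther has the sequence attaaacccgatCAGCTGataacaaatgag (3L:21196698-21196727, minus strand). The nearer one lay 35.5, 25.5 and 32.5 bp from the summits of replicates 1, 2 and 3. The start of the divergent gene Targ3 was 69 bp from the summit, and its closest start to park is 22 bp away, so this peak cannot be assigned to 1 gene either.

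milt, the adaptor that couples mitochondria to kinesin (FBgn0262872, 2L:7037823-7056010, plus strand), carried the peak ranked 8 of the IDR list. It had a relative signal of 29.98, 30.3 and 31.1 in replicates 1, 2 and 3, or 30.4 ± 0.554 (SD, n = 3). The highest replicate was 1.04 times the lowest, the narrowest spread of the 6 genes, and the summit was the same base, 7042330, in every replicate. The peak covered 1516 bp, wider than 99.0% of IDR peaks.

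The milt peak was at an internal start, with the summit 29 bp upstream of the start of milt-RD and milt-RF and in an intron of the longer transcripts. No start of another protein-coding gene lay within 500 bp, so milt was the only gene that could be named for it. The AP-4 E-box nearest the summit was 23.5 bp away in each list, and the other one printed in its upstream stretch was 78.5 bp away.

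The other 3 starts of milt carried far less signal. At the first start, used by milt-RA and milt-RC, an IDR summit lay 128 bp downstream in the 5' UTR at rank 4730, with a relative signal of 0.537 in the pooled list, a match in replicate 2 only, at 0.476, and no AP-4 E-box within 50 bp. The internal peak was 66.2 times as strong in the pooled list and 63.6 times as strong in replicate 2. The start of milt-RE had relaxed peaks only, of 0.748, 0.138 and 0.345 in replicates 1, 2 and 3, and that of milt-RB had a peak of 0.0878 in the pooled list and none in a replicate.

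milt was also the 1 gene of the 8 with IDR summits in its body, beyond 500 bp from its starts, beside 6.43% of all protein-coding genes. One lay in an intron 739 bp downstream of the first start, with an AP-4 E-box 9.5 bp away. There the relative signal was 0.624, 0.576 and 1.12 in the 3 replicates. The other lay 904 bp downstream of the internal start, on the flank of the strong peak and in the same called region, with 0.496 and 0.407 in replicates 2 and 3 and no match in replicate 1. Both were weak beside the promoter peak of the same gene.

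Miro, the outer membrane GTPase that binds milt (FBgn0039140, 3R:24034362-24038847, minus strand), had 4 IDR promoter summits in 2 called regions, 1 at each of its starts. Of the 8 genes, 2, Miro and milt, had 2 or more IDR promoter summits, beside 6.28% of all protein-coding genes. The strongest, at rank 1088, lay 146 bp upstream of the start of Miro-RC, Miro-RD and Miro-RE and inside the 5' UTR of Miro-RF. Its relative signal was 2.91, 4.69 and 2.45 in replicates 1, 2 and 3, or 3.35 ± 1.18 (SD, n = 3). A second summit of the same region, 200 bp further upstream at rank 1634, had 1.83, 1.99 and 1.51.

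The other Miro region lay at the upstream start, that of Miro-RF. Its stronger summit, at rank 1593, was 93 bp upstream of that start and had 2.31, 0.328 and 2.90 in replicates 1, 2 and 3. Replicate 2 stood apart there: the downstream peak was 14.3 times this one in replicate 2, against 1.26 times in replicate 1 and 0.846 times in replicate 3. Which of the Miro starts carried more signal therefore depended on the replicate. The last summit, at rank 3988, was 298 bp upstream of the same start, with 1.23 and 1.15 in replicates 1 and 3 and no match in replicate 2.

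Both Miro regions lay at or in spas, the gene of the microtubule-severing enzyme spastin, which is transcribed the other way and starts between the starts of Miro. The 2 summits of the downstream region were 339 and 139 bp from the spas start, and those of the upstream region lay in spas exons. The strongest summit had an AP-4 E-box 43.5 bp away in the pooled list, and 51.5, 62.5 and 38.5 bp from the replicate summits, so it lay whole within 50 bp in replicate 3 only. The site printed for the upstream start was 26.5 bp from the summit there.

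Drp1, the GTPase that constricts mitochondria during division (FBgn0026479, 2L:2581281-2585430, minus strand), had a peak at rank 1597 that was unlike the others in having no AP-4 E-box near it. Its relative signal was 1.13, 2.29 and 1.53 in replicates 1, 2 and 3, or 1.65 ± 0.591 (SD, n = 3). The summit lay 64 bp upstream of the 1 start of the gene, outside any annotated protein-coding gene. The peak covered 350 bp, narrower than the 470 bp of the median IDR peak. The nearest CAGCTG was 650.5 bp from the summit. The CGATA copy in the printed Drp1 stretch was the only one of the 11 motifs searched that lay within 50 bp of the summit.

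**Figure D2:**
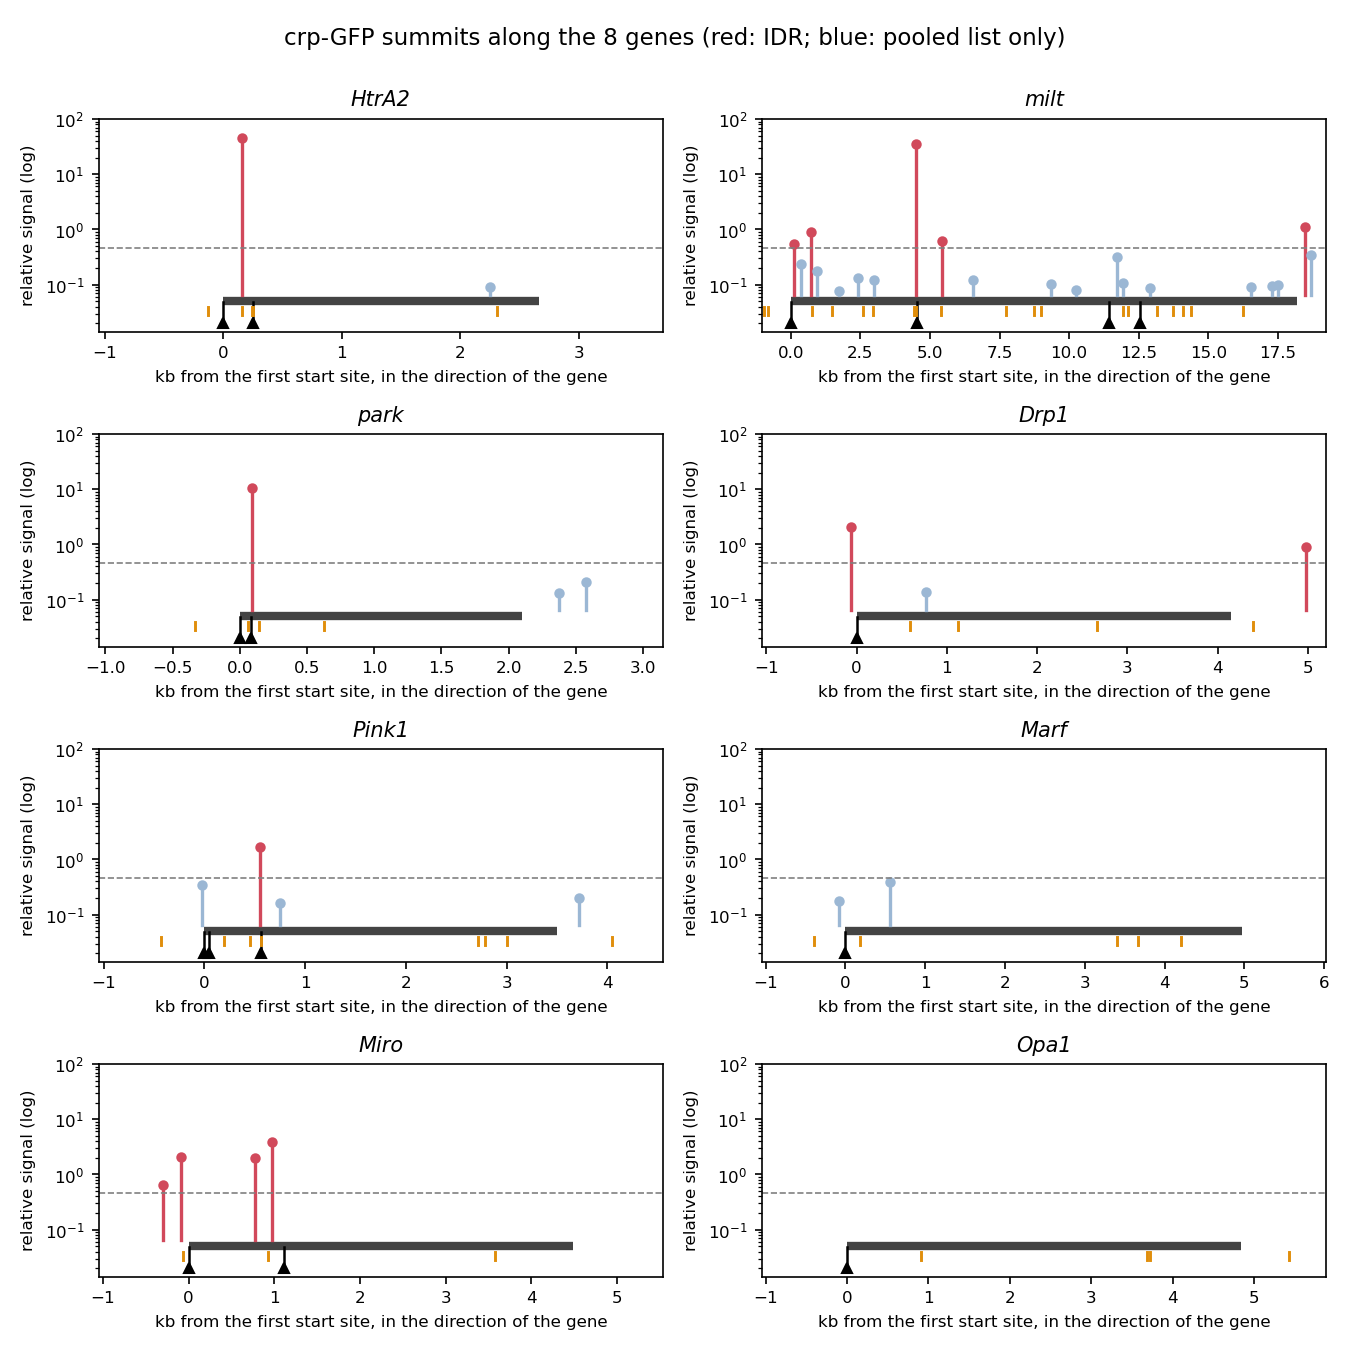
Summits along the 8 genes, with distance from the first start site in kb in the direction of the gene on the x axis and relative signal of the pooled list (log scale) on the y axis; red stems are IDR summits, blue stems summits of the pooled list only, triangles start sites, the bar the gene and orange ticks CAGCTG. milt has its tall summit at an internal start, Miro has 4 IDR summits around its 2 starts, and Marf and Opa1 have none; summits outside the bar lie in flanking DNA.

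Marf, the mitofusin of the outer membrane (FBgn0029870, X:6365949-6370924, plus strand), had promoter peaks in the relaxed lists only. They had a relative signal of 0.405, 0.198 and 0.293 in replicates 1, 2 and 3, but the summits lay 457 bp downstream, 15 bp upstream and 65 bp downstream of the start. Those of replicates 2 and 3 lay within the 100 bp used here to match summits, and that of replicate 1 did not match either. In the pooled list the promoter peak had 0.177 and a peak 562 bp into the gene had 0.393, both below the weakest IDR peak. The nearest IDR summit was 7041 bp away, near the start of PpV. AP-4 E-boxes were not lacking, since 2 lay within 500 bp of the start, the nearest 182.5 bp from it; 42.3% of all protein-coding start sites had at least 1 in that window.

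Opa1, the GTPase of inner membrane fusion (FBgn0261276, 2R:14230611-14235449, minus strand), had a relaxed promoter peak in 1 replicate. It had a relative signal of 0.192 in replicate 3, at rank 11049 and 21 bp downstream of the start, and no promoter peak in the pooled list or in replicates 1 and 2. The nearest IDR summit was 4436 bp away, near the starts of Snrk and Usp20-33, and the start had no AP-4 E-box within 500 bp. Among the 9311 protein-coding genes without an IDR promoter summit, 34.3%, 28.7% and 38.8% had a relaxed promoter peak in replicates 1, 2 and 3, with median relative signals of 0.236, 0.174 and 0.200. In each replicate most of these genes thus had no relaxed promoter peak. Marf was above the median of those with a peak in every replicate, and Opa1 was slightly below it in replicate 3. With the depth unknown, weaker binding at these 2 genes could not be told apart from background.

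The order of the 6 genes by relative signal was HtrA2, milt, park, Miro, Drp1 and Pink1 by the mean over replicates, and the first 4 places were the same in every replicate. Neighbours were compared by their log2 ratio within each replicate, with an exact two-sided sign-flip permutation test, which cannot go below 0.25 with 3 replicates. HtrA2 was above milt by a log2 ratio of 0.11, 0.62 and 0.29 in replicates 1, 2 and 3, a mean of 0.34 ± 0.26 (SD, n = 3, exact p = 0.25). milt was above park by 1.76 ± 0.22, park above Miro by 1.48 ± 0.70 and Miro above Drp1 by 1.03 ± 0.34 on the log2 scale, each in 3 of 3 replicates (exact p = 0.25 for each). Drp1 and Pink1 did not differ beyond their spread, with log2 ratios of Drp1 over Pink1 of −0.64, 1.55 and −0.50 and a mean of 0.14 ± 1.23 (SD, n = 3, exact p = 1). Adjusted over these 5 comparisons by the Benjamini-Hochberg method, the p was 0.3125 for the first 4 and 1 for the last. No p could pass a threshold of 0.05, and the steps are read from their spread alone.

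**Figure D3:**
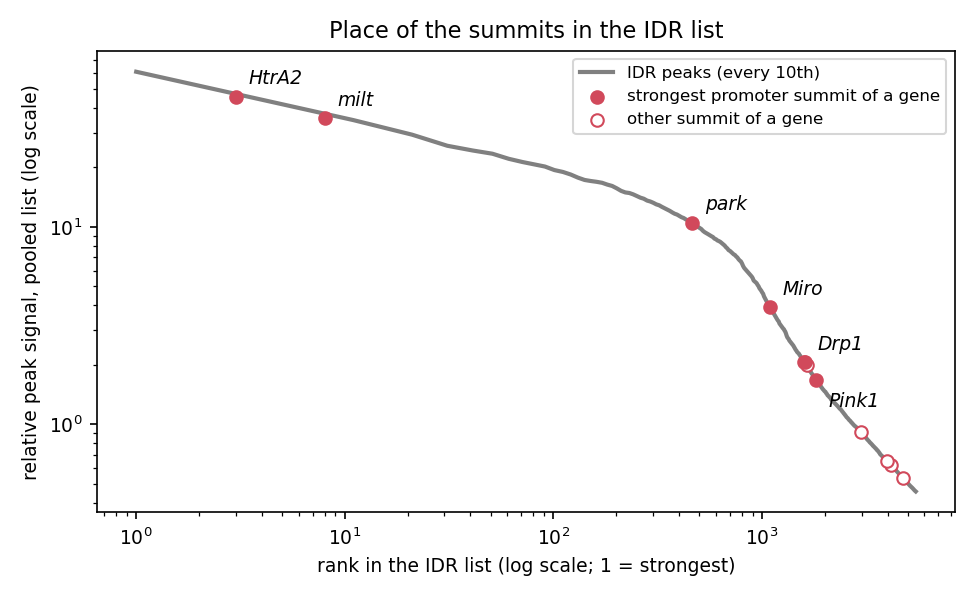
Rank in the IDR list (x axis, log scale, 1 is the strongest) against relative signal in the pooled list (y axis, log scale); the grey line joins every 10th IDR peak, filled points are the strongest promoter summit of each gene and open points its other summits. HtrA2 and milt lie at the top of the curve at ranks 3 and 8, park on its shoulder at 463, and Miro, Drp1 and Pink1 on the steep part at 1088, 1597 and 1818.

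Set among the 4657 protein-coding genes with an IDR promoter summit, the strongest promoter peak was above that of 99.9% of them for HtrA2, 99.8% for milt, 84.2% for park, 67.1% for Miro, 56.2% for Drp1 and 52.6% for Pink1. Peak width followed a like order at the top, with HtrA2, milt, park and Miro wider than 80.1% of IDR peaks or more. Drp1 and Pink1 were wider than 32.8% and 38.4% of them. Width and signal come from the same peak call and are not separate measures.

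The strongest summit lay close to a start, and in each gene with a choice of starts it was nearest to a start other than the first one in the pooled list. The median distance from the strongest promoter summit to the nearest start was 46.5 bp over the 6 genes, beside 82 bp over all genes with such a summit, and 5 of the 6 summits were upstream of that start, park being the exception, beside 87.2% over all such genes. 5 of the 6 genes have more than 1 start, and in 5 of 5 the strongest summit was nearest to a start other than the most upstream one. The same held for 36.5% of the 1755 protein-coding genes with more than 1 start and an IDR promoter summit. For Miro this place depended on the replicate, since in replicate 3 the peak at the first start, 2.90, was above the downstream one, 2.45, and Miro and milt had weaker IDR summits at the first start as well. The labels give a fragment size of 200 to 800 bp, and both starts of park lie closer together than the shortest such fragment. The starts of HtrA2, 252 bp apart, and the internal start of Pink1, 557 bp from its first, lie within that range. The start nearest the summit is thus less well resolved at these genes.

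The strongest summit was in an annotated 5' UTR at HtrA2, Miro, Pink1 and park, 4 of 6, beside 21.7% of all 3975 IDR promoter summits. It was within 500 bp of the start of a further protein-coding gene at HtrA2, Miro and park, 3 of 6, beside 39.3% of IDR promoter summits. milt, Drp1 and Pink1 were thus the genes whose peak had no other protein-coding start in reach.

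The AP-4 E-box lay whole within 50 bp of the strongest promoter summit at HtrA2, milt, park, Miro and Pink1, 5 of 6, beside 30.0% of IDR promoter summits. The distance to its centre had a median of 23.5 bp over the 5 genes, and of 19.5 bp over all IDR promoter summits with a site. The share of summits with a site moved with strength. With the IDR promoter summits split by signal into 5 classes of 795, it was 64.3% in the strongest class, which holds HtrA2, milt and park, 42.0% in the next, which holds Miro and Drp1, and 19.7% in the middle class, which holds Pink1. In the weaker classes it was 11.8% and 12.1%. Pink1 thus had a site at a strength where most summits had none, and Drp1 lacked one where 42.0% had one.

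The base before CAGCTG was compared over the sites within 50 bp. On at least 1 strand it was an A at 4 of the 5 sites, those of HtrA2, milt, Miro and Pink1, and the site of park was the exception. Among 1314 such sites at IDR promoter summits the share was 71.0%, and among the 62338 copies of CAGCTG on the 7 arms it was 35.4%. With AA before it on a strand there were 3 of the 5, HtrA2, milt and Pink1, beside 53.9% at IDR promoter summits and 13.5% over the arms.

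Of 10 further motifs searched on both strands within 50 bp of the summits, CGATA was at HtrA2, Pink1 and Drp1, beside 30.7% of IDR promoter summits. The letters TATAAA, those of a TATA box, were at Pink1, beside 13.4%. There they end the printed line and lie downstream of the Pink1-RI start, not upstream of it. No gene of the 6 had TATCGATA, the DNA replication-related element, which contains CGATA, beside 7.82% of IDR promoter summits, and none had the M1BP site GGTCACACT, beside 3.40%. Core promoter motif 6 (GGTATTTT), with 3.62% of IDR promoter summits, and the GAGA factor site (GAGAGAG), with 2.64%, were also at none of the 6. The same held for the E-box CACGTG, with 1.64%, and for the E-boxes with the letters CACCTG, with 4.60%, or CATATG, with 4.35%, or CAGATG, with 5.48%.

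By likeness of the 3 replicate values, measured as the Euclidean distance between log2 relative signals over the 3 replicates, each gene was set beside 3960 genes with a matched peak in every replicate. mRpL11, spas and Targ3 had a distance of 0 from HtrA2, Miro and park because they share the summit. Of genes with a summit of their own, the nearest were Tpr2 to HtrA2 at 0.352, CG11050 to milt at 0.203, CG7369 to Miro at 0.112, Ufsp2 to Pink1 at 0.185, Fum1 to park at 0.0371 and eEF1gamma to Drp1 at 0.104. With 3 values a gene, such a match is a description of level only.

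A wider list of 57 genes with roles in mitochondrial shape and quality control was chosen by role, and 55 of them matched a protein-coding gene. It was chosen with earlier results of these data known, so its shares are a description and not a test. An IDR promoter summit was at 30 of the 55, or 54.5%, beside the 33.3% of all genes given above. Of the 55, 13 had a promoter summit among the 1000 strongest IDR peaks, beside 10.2% of all genes. With a summit counted only for the gene with the nearest start site, 21 of the 55 had one. For the rest of the 30 the summit lay nearer the start of another gene. The median relative signal of the 30 in the pooled list was 3.11. An AP-4 E-box lay within 50 bp in 9 of the 30, a share of 30%, set against the 30.0% of all IDR promoter summits.

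The counts are given by role, with every summit within 500 bp of a start counted, also one nearer the start of another gene. Of the Pink1 and parkin pathway and mitophagy genes 10 of 12 had a peak, of the matrix chaperones 3 of 4, of the inner membrane and matrix proteases and prohibitins 6 of 9, of the genes for cristae and inner membrane shape 3 of 5, of outer membrane import and channels 3 of 6, of transport along microtubules 1 of 3, of fusion and fission 2 of 8 and of Parkinson gene homologues and stress genes 2 of 8. Groups of this size were not tested against each other, and the last 3 lie near the 33.3% of all genes.

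By mean relative signal, of the 10 strongest promoter peaks of the wider list those of ClpX, Chchd3, Vps13D, Mitofilin, ntc and Miga lay between park and milt, and the other 4 between Miro and park. ClpX, the unfoldase of the matrix Clp protease, had 14.2, 10.9 and 19.0 in replicates 1, 2 and 3 (rank 162), and its partner ClpP averaged 8.58 ± 1.11 (SD, n = 3). Of the genes for the MICOS complex, which shapes cristae, Chchd3 had 11.6, 14.9 and 13.2 (rank 203) and Mitofilin averaged 10.0 ± 0.364. In the Pink1 and parkin group Vps13D, a lipid transfer protein needed for mitochondrial clearance, averaged 10.1 ± 0.589, ntc, an F-box protein, 9.54 ± 0.257, Mul1, an outer membrane ubiquitin ligase, 8.65 ± 1.18, and Usp30, a deubiquitinase that opposes parkin, 6.78 ± 2.46. Miga, the outer membrane fusion factor mitoguardin, averaged 9.21 ± 1.06 and Tom7, a subunit of the import pore, 6.02 ± 0.542. Of these 10, ClpX, Chchd3, Usp30 and Tom7 had an AP-4 E-box within 50 bp of the summit. Neighbouring starts are not given for these 10, so some of the peaks may lie nearer another gene. No gene of the wider list reached the level of HtrA2 or milt.

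**Figure D4:**
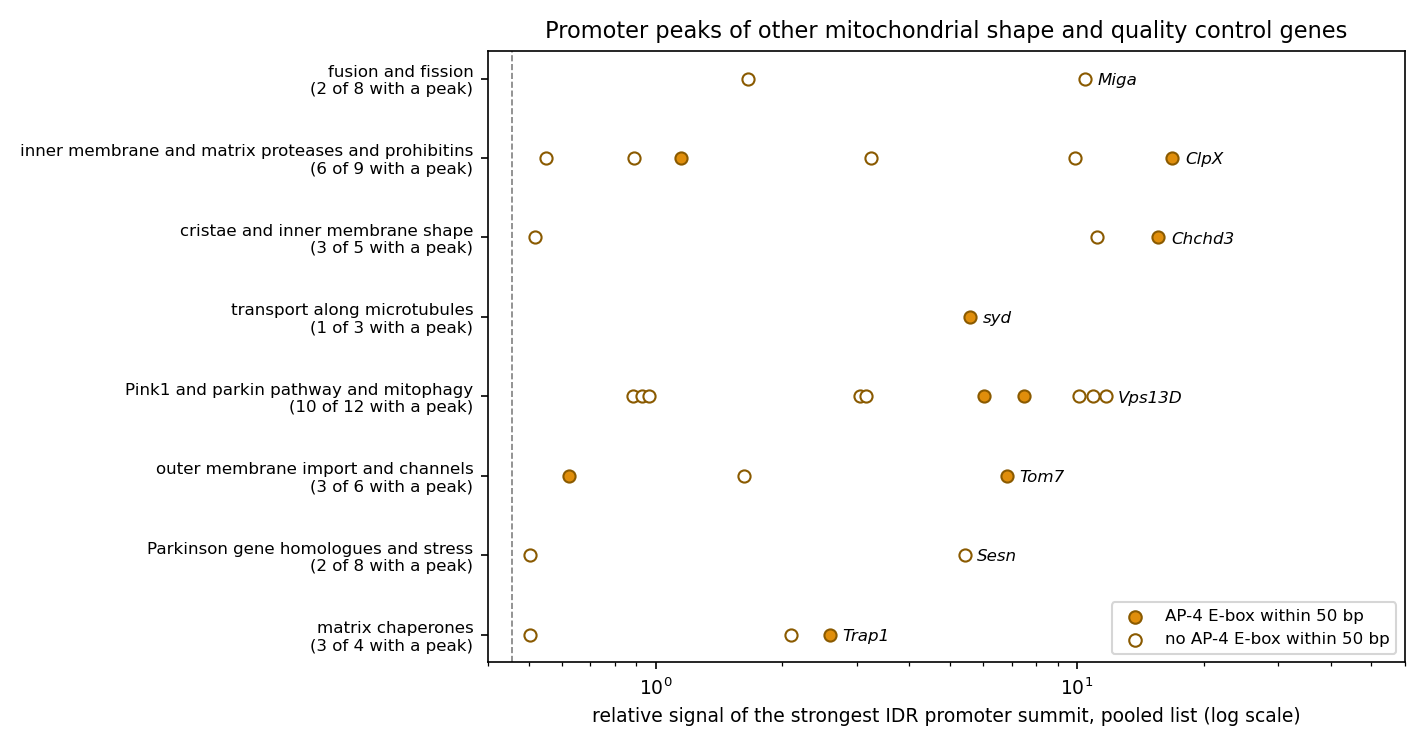
Relative signal in the pooled list (x axis, log scale) of the strongest IDR promoter summit for each of the 30 genes of the wider list that had one, by role; filled points have an AP-4 E-box within 50 bp, open points none, the gene with the highest value of each role is named, and the dashed line is the weakest IDR peak at 0.456. The Pink1 and parkin group has 10 of 12 genes with a peak, and the fusion and fission and the Parkinson and stress groups have 2 of 8 each.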

How the data were processed

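Peaks of crp-GFP ChIP-seq were read from 5 lists deposited on dm6: 1 IDR list, 1 list of the pooled replicates and 1 of each of 3 replicates. The signal of each peak and the summit offset (another value, in bases from the peak start) were used as the authors deposited them. Aligner, peak caller and IDR threshold: not given in the sources used here. Per the deposited notes, the IDR list rests on the pooled list, the list of replicate 2 and other files not used here, so the part of replicates 1 and 3 in it is not known in full. Depth is unknown, so no counting error could be attached to a signal.

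Gene models were those of Ensembl release 115 for dm6, with 19275 distinct start sites of protein-coding genes, and sequence came from the RefSeq copy of the same assembly. A peak of a replicate belonged to an IDR summit when its summit lay within 100 bp. Relative signal is signal over the median of the list's 5460 strongest peaks. The members and lists were chosen with earlier results of these data known, and shares of all genes are given as background with no test. Named are all 8 genes and, by rule, the 10 of the wider list with the strongest promoter peak. Of that list 2 names, Mtfp1 and zonda, matched no gene, and 4 matched through a synonym. The matching of summits, genes and sites was tested on simulated data. Alternatives covered windows, lists, scaling, matching distance and leaving out each replicate. The labels call the replicates biological but name no separate crosses or collections. Python 3.11.15, numpy 2.4.6, scipy 1.17.1 and matplotlib 3.10.9 were used.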

Additional observations from a re-analysis of the deposited data

How the results depend on the processing

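Of 87 values recomputed under an alternative, 73 stayed within the limits set for a change and 14 moved, 7 of them values of single genes and 6 of these 7 under the whole-list scaling below. The other was milt, at 32.2 against 30.4 when scaled by the peaks matched to the IDR list. The limit for a single gene was the SD over its replicates, which leaving out a replicate cannot pass. Counts that require every replicate cannot fall when a replicate is left out. The 73 thus include values that could not have moved, and their number is no measure of stability. With only the 1000 strongest IDR peaks, 3 of the 8 genes (HtrA2, milt and park) and 13 of the 55 wider genes had a promoter summit. The share of all genes was 10.2%. With the whole list the counts were 6 and 30, beside 33.3% of all genes. With the full pooled list, 7 of the 8 (Marf added) and 52 of the 55 had one, beside 57.2% of all genes. With the start of the gene as a whole only, 5 of the 8 had one and Pink1 was lost. Leaving out each replicate in turn, with the strongest summits common to both other replicates in place of the IDR list, kept 6 of 8 each time and gave 22 to 26 of the wider list. Counting a summit for the nearest gene only, an alternative chosen after seeing the data, gave 6 and 21. The share of all genes was not computed for the start of the gene as a whole, the left-out replicates or the nearest gene. These counts therefore have no background beside them.

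A site window of 25 bp left 2 genes with an AP-4 E-box, against 5 within 50 bp. Leaving out each replicate gave 4 to 5, Miro losing its site without replicate 3. The share of all IDR promoter summits with a site, 30.0%, was computed for the 50 bp window of the IDR list only. The other counts of sites therefore have no background beside them. Scaling by the median of the whole relaxed list raised the median relative signal of the 6 genes to 40.2, against 6.21, by construction, since that median peak is weaker; leaving out each replicate gave 5.98 to 6.47. Genes with an IDR summit in the body were 2 beyond 200 bp and 0 beyond 1000 bp from a start, against 1 beyond 500 bp, also chosen after seeing the data. The share of all genes was computed for 500 bp only. Of 5 neighbouring pairs in the order, 4 kept their sign in all replicates. With a replicate left out 4 to 5 did so, a count that could not fall by construction. Without replicate 2, Pink1 was above Drp1 in both others. Depth being unknown, the lists set no limit on weak binding at Marf or Opa1.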
